A study of Rattus norvegicus with 52 samples.

Results

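Transcripts of 10 genes for uptake by the kidney proximal tubule were followed in S, ET3x1 and ET3x2 rats on high or low salt. All probe sets on the Affymetrix RAE230A and RAE230B chips that the platform annotation gives to Slc4a4, Slc9a3, Slc34a1, Slc5a1, Slc5a2, Lrp2, Cubn, Dab2, Slc22a6 or Slc22a8 were taken, which gave 13 probe sets for the 10 genes among 13810 genes with a probe set. The 26 rats were 8 of the congenic strain ET3x2, 8 of the congenic strain ET3x1, and 10 of the inbred salt-sensitive strain SS/jr, called S. All were males, weaned at 30 days onto chow with 0.4% NaCl, and 4 rats of each congenic strain and 5 S rats were moved at 39 to 41 days of age to 4% NaCl for 24 hours, while as many stayed on 0.4%. Each was 40 to 42 days old when total RNA was taken from the left kidney. The congenic strains carry chromosome segments from R rats on the S background, so most of their genome is that of S. The labels do not give the ends of these segments, and each congenic strain is a single line.

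The proximal tubule takes back most of the water, salt, glucose and protein that the glomerulus filters. Sodium enters the cell from the urine through exchangers and cotransporters of the brush border, such as those of Slc9a3, Slc34a1, Slc5a1 and Slc5a2, and bicarbonate leaves on the blood side through the product of Slc4a4. Filtered proteins bind the giant receptors megalin (Lrp2) and cubilin (Cubn) and are carried inside with the adaptor Dab2, while Slc22a6 and Slc22a8 take organic anions from the blood for secretion.

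Across the series 52 arrays were read, 1 of each chip per rat, with medians of 7.47 to 7.52 (log2) for the RAE230A and of 6.34 to 6.40 for the RAE230B arrays. A list of 10 other proximal tubule markers was bright in every rat, with a mean log2 signal of 11.90 to 12.13 in ET3x2, 12.06 to 12.12 in ET3x1 and 11.81 to 12.14 in S rats, whereas all 4 liver markers lay below the filter on dim probe sets. Of these 10 markers, 2 were higher and 5 lower in ET3x2 than in S rats (median log2 difference -0.13), and 2 were higher and 1 lower in ET3x1 (median -0.02). Of all tested genes, limma called 30.9% in ET3x2 and 32.1% in ET3x1 (adjusted p below 0.05). The same shares stand against the marker counts below. Of the tested markers of other cell types, 2 of 2 podocyte markers were lower in each congenic strain than in S rats. Of 5 leukocyte markers 4 were higher in each, and of 4 endothelial markers 1 was lower in ET3x2 and 2 in ET3x1. The mean of 4 podocyte markers, 2 of them below the filter, was 7.30 to 7.69 in ET3x2, 7.18 to 7.54 in ET3x1 and 7.64 to 7.90 in S rats, and that of 6 leukocyte markers, 1 below the filter, was 8.30 to 8.78 in ET3x2, 8.52 to 8.68 in ET3x1 and 8.16 to 8.50 in S rats. The mean of 5 thick ascending limb markers was 9.81 to 10.32 in ET3x2, 9.84 to 10.50 in ET3x1 and 10.11 to 10.50 in S rats, and 2 of the 5 were lower in ET3x2 than in S rats and 0 in ET3x1. For 5 endothelial markers, 1 below the filter, it was 8.21 to 8.38 in ET3x2, 8.19 to 8.43 in ET3x1 and 8.39 to 8.56 in S rats. Each of the next lists had 1 marker below the filter, and its ranges overlapped between the strains. Of 4 tested distal tubule markers 1 was higher in each congenic strain than in S rats. Of 6 collecting duct markers 1 was lower in ET3x2, and 1 was higher and 1 lower in ET3x1. Of 2 erythroid markers 1 was higher in ET3x2 and 0 in ET3x1. The mean of 5 distal tubule markers was 9.16 to 9.39 in ET3x2, 9.30 to 9.39 in ET3x1 and 9.24 to 9.36 in S rats. That of 7 collecting duct markers was 9.29 to 9.47 in ET3x2, 9.39 to 9.52 in ET3x1 and 9.31 to 9.67 in S rats. That of 3 erythroid markers was 9.96 to 10.48 in ET3x2, 9.26 to 10.31 in ET3x1 and 9.01 to 10.28 in S rats. The part of any of these cells in the results below was not tested, and in whole kidney fewer cells of a type and less RNA per cell cannot be told apart. The 3' to 5' ratio of the Gapdh control, a sign of RNA integrity, had a lower mean on high salt in both congenic strains and differed less between the diets in S rats. On RAE230A its mean log2 value was 0.747 on high and 0.948 on low salt in ET3x2, 0.594 on high and 0.877 on low salt in ET3x1, and 0.812 on high and 0.827 on low salt in S rats. The mean beta-actin ratio was lower on high salt in S rats too, at 0.923 against 1.14. It was 0.878 against 1.05 in ET3x2 and 0.609 against 1.22 in ET3x1. In S rats 1 and 2 on high salt the spike-in difference bioD minus bioC was 1.65 and 1.55, the lowest of the 26 RAE230A arrays. In ET3x1 the diets did not overlap in this measure. On RAE230A it was 2.95 to 3.29 on high and 2.30 to 2.75 on low salt, and on RAE230B 2.87 to 3.15 and 1.98 to 2.34. The RAE230A means on high and low salt were 2.67 and 2.29 in ET3x2 and 2.37 and 2.83 in S rats.

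Values are log2 signals, and differences are log2 differences ± the standard error of a limma fit, with p-values adjusted by the Benjamini-Hochberg method over 15473 tested probe sets and called below 0.05. Signals of different probe sets depend on their oligonucleotides and say nothing of which transcript was more abundant. Of the 10 genes 9 passed the filter, which kept probe sets with a mean of at least 7.51 on RAE230A or 6.38 on RAE230B, and Slc5a1 did not. In ET3x2 against S rats 0 of the 9 were higher and 3 were lower (Slc4a4, Lrp2 and Cubn), against 30.9% of 8744 tested genes called in either direction. In ET3x1 against S rats 1 was higher (Slc5a2) and 2 were lower (Lrp2 and Cubn), against 32.1% of all genes. Both shares of members are close to the share of all genes, so the counts alone do not set the members apart. The median of the 9 differences was -0.06 in ET3x2 and -0.06 in ET3x1, against 0.03 and 0.02 for all tested genes. These comparisons share the same S rats.

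**Figure D1:**
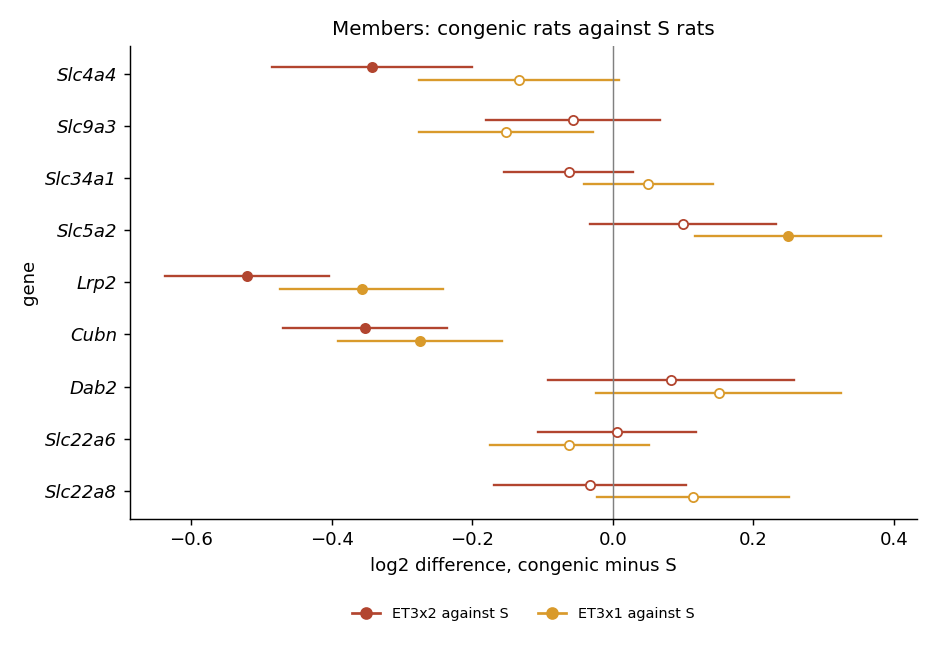
Log2 difference of each of the 9 tested members (rows) in ET3x2 rats (red) and ET3x1 rats (yellow) against S rats, both diets averaged, with 95% confidence intervals of the limma fit as lines and filled points for adjusted p below 0.05. Lrp2 and Cubn lie left of 0 in both congenic strains (-0.52 and -0.35 in ET3x2), Slc4a4 in ET3x2 (-0.34), and Slc5a2 lies right of 0 in ET3x1 (0.25).

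Lrp2 and Cubn, the pair of endocytic receptors, were lower in both congenic strains. Lrp2 encodes megalin, a membrane receptor of very broad ligand range, lies on chromosome 3 and spans 157 kb in the GRCr8 assembly. Its probe set 1367952_at ranked 184 of 15866 on RAE230A. The log2 signal was 11.97, 11.82, 11.99 and 11.50 in ET3x2 rats on high salt and 11.65, 11.64, 11.90 and 11.79 in those on low salt. In ET3x1 rats it was 11.81, 11.99, 11.99 and 11.91 on high salt and 11.96, 11.86, 12.05 and 11.98 on low salt. S rats had 12.32, 12.39, 12.38, 12.23 and 12.23 on high salt and 12.31, 12.28, 12.30, 12.22 and 12.37 on low salt. Every rat of either congenic strain was below every S rat, and within each strain the diets overlapped. The difference was -0.52 ± 0.06 in ET3x2 (adjusted p = 4.51e-06, a signal 1.43-fold lower) and -0.36 ± 0.06 in ET3x1 (adjusted p = 8.90e-05, 1.28-fold lower). ET3x2 and ET3x1 differed by -0.16 ± 0.06 (95% interval -0.29 to -0.04, adjusted p = 0.0742), in a comparison where limma called 0 of the 9 members and 10.1% of all genes. Before adjustment 5 of the 9 had p below 0.05 there (Slc4a4, Slc34a1, Slc5a2, Lrp2 and Slc22a8).

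Cubn encodes cubilin, a peripheral receptor with no membrane span of its own, which binds vitamin B12 with intrinsic factor, albumin and other ligands. It lies on chromosome 17. The signal of probe set 1387037_at was 11.09, 11.08, 11.24 and 11.03 in ET3x2 rats on high salt and 11.14, 10.99, 11.10 and 11.16 in those on low salt. ET3x1 rats had 11.25, 11.22, 11.22 and 11.07 on high salt and 11.23, 10.92, 11.33 and 11.21 on low salt. S rats had 11.60, 11.57, 11.31, 11.59 and 11.37 on high salt and 11.26, 11.44, 11.46, 11.43 and 11.55 on low salt. All ET3x2 rats were below all S rats, while 1 ET3x1 rat, at 11.33, lay above the lowest S rats. Cubn differed by -0.35 ± 0.06 in ET3x2 (adjusted p = 0.000156, 1.28-fold lower) and by -0.27 ± 0.06 in ET3x1 (adjusted p = 0.000925, 1.21-fold lower) from S rats.

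The receptors were lower on each diet taken apart. On low salt Lrp2 differed by -0.55 ± 0.08 in ET3x2 (adjusted p = 0.000117) and by -0.33 ± 0.08 in ET3x1 (adjusted p = 0.00430). On high salt the Lrp2 differences were -0.49 ± 0.08 in ET3x2 (adjusted p = 0.00210) and -0.38 ± 0.08 in ET3x1 (adjusted p = 0.00281). Cubn differed on low salt by -0.33 ± 0.08 in ET3x2 (adjusted p = 0.00675) and by -0.25 ± 0.08 in ET3x1 (adjusted p = 0.0221), and on high salt by -0.38 ± 0.08 in ET3x2 (adjusted p = 0.0122) and -0.30 ± 0.08 in ET3x1 (adjusted p = 0.0158). Without S rats 1 and 2 the high-salt differences of Cubn were -0.31 in ET3x2 (adjusted p = 0.123) and -0.23 in ET3x1 (adjusted p = 0.110), no longer called, while those of Lrp2 were -0.46 in ET3x2 (adjusted p = 0.0441) and -0.36 in ET3x1 (adjusted p = 0.0216). The Cubn call on high salt was also lost without ET3x2 rat 2 or 4 (adjusted p = 0.0535 and 0.0581) or ET3x1 rat 4 (adjusted p = 0.0702), and that on low salt without ET3x1 rat 2 (-0.17, adjusted p = 0.140) or S rat 5 (-0.22, adjusted p = 0.0501). With the Gapdh ratio as a covariate Cubn differed by -0.22 in ET3x2 on low salt (adjusted p = 0.0821), and with bioD minus bioC as a covariate by -0.26 in ET3x1 on high salt (adjusted p = 0.116), so these calls were lost too. In the comparisons of ET3x2 with S, 3 members were lower on low and 2 on high salt, against 22.4% and 3.73% of all genes called. With salt, averaged over the 3 strains, Lrp2 changed by 0.02 ± 0.05 (95% interval -0.08 to 0.11) and Cubn by 0.03 ± 0.05 (95% interval -0.07 to 0.13).

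The start regions of both receptor genes are printed here because these members were lower together in 2 strains. They are RefSeq sequences of GRCr8, each from 250 bases before to 50 bases after the annotated start, read 5′ to 3′ on the gene's strand, which is the minus strand for both. The Lrp2 region is chr3:74754486-74754785 and the Cubn region chr17:81501645-81501944. Capitals mark CAAAGT, a core found in binding sites of the tubule factor HNF4, searched on both strands.
Lrp2: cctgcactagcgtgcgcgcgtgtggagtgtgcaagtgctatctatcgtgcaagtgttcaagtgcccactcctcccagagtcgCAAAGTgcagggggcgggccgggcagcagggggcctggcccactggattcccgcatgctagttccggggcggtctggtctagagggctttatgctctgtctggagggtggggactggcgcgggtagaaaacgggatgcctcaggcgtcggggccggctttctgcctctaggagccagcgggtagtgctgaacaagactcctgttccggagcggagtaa
Cubn: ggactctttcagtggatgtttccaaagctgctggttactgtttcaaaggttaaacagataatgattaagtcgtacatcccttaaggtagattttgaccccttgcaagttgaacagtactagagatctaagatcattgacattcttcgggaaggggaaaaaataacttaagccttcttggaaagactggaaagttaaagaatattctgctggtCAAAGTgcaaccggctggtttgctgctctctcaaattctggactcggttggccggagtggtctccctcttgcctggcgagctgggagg
The match begins 168 bases before the start of Lrp2 and 38 bases before that of Cubn. Regions for 9 of the 10 members were in the table, and 5 of them held CAAAGT (Slc5a2, Lrp2, Slc4a4, Slc34a1 and Cubn), as did 14.8% of all 33469 regions of this length. The longer CAAAGTCCA was in 0 of the 9 and in 0.391% of all. GTTAAT, a site of HNF1 in part, was in 2 of the 9 (Slc22a8 and Slc34a1) and in 7.45% of all. The regions differ in base composition, with 63.3% G and C in Lrp2 and 44.7% in Cubn. A match is a description of these letters and not a measured site.

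Dab2, the cytosolic adaptor that links megalin to clathrin, was called in neither congenic strain against S when the diets were averaged, and it fell on salt in ET3x1. It lies on chromosome 2 and was read by probe set 1368202_a_at. Its signal was 12.11, 12.06, 12.19 and 11.69 in ET3x2 rats on high salt and 11.86, 11.91, 12.27 and 11.98 in those on low salt. In ET3x1 rats it was 11.79, 11.94, 11.93 and 11.72 on high salt and 12.38, 12.26, 12.39 and 12.21 on low salt. S rats had 11.89, 12.00, 12.23, 12.08 and 12.15 on high salt and 11.45, 11.45, 11.95, 12.03 and 12.05 on low salt. The ET3x1 diets did not overlap, high salt being lower, and the S rats on low salt were split between a pair at 11.45 and 3 rats near 12. Averaged over diets, Dab2 differed by 0.08 ± 0.09 in ET3x2 (95% interval -0.09 to 0.26) and by 0.15 ± 0.09 in ET3x1 (95% interval -0.02 to 0.33) from S rats.

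With salt Dab2 fell in ET3x1 (-0.47 ± 0.13, adjusted p = 0.0135), while its change was 0.01 ± 0.13 in ET3x2 (adjusted p = 0.992) and 0.29 ± 0.11 in S rats (adjusted p = 0.165). The difference between the salt responses of ET3x1 and S rats was itself tested and was -0.75 ± 0.17 (adjusted p = 0.0129). The responses of ET3x2 and S rats differed by -0.28 ± 0.17 (95% interval -0.63 to 0.07), and those of ET3x2 and ET3x1 by 0.48 ± 0.18 (adjusted p = 0.219). On low salt Dab2 was higher in ET3x1 than in S rats (0.53 ± 0.12, adjusted p = 0.00291), and on high salt the difference was -0.23 ± 0.12 (adjusted p = 0.209). With the Gapdh ratio as a covariate the ET3x1 salt change was -0.65 (adjusted p = 0.176), larger and not called.

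**Figure D2:**
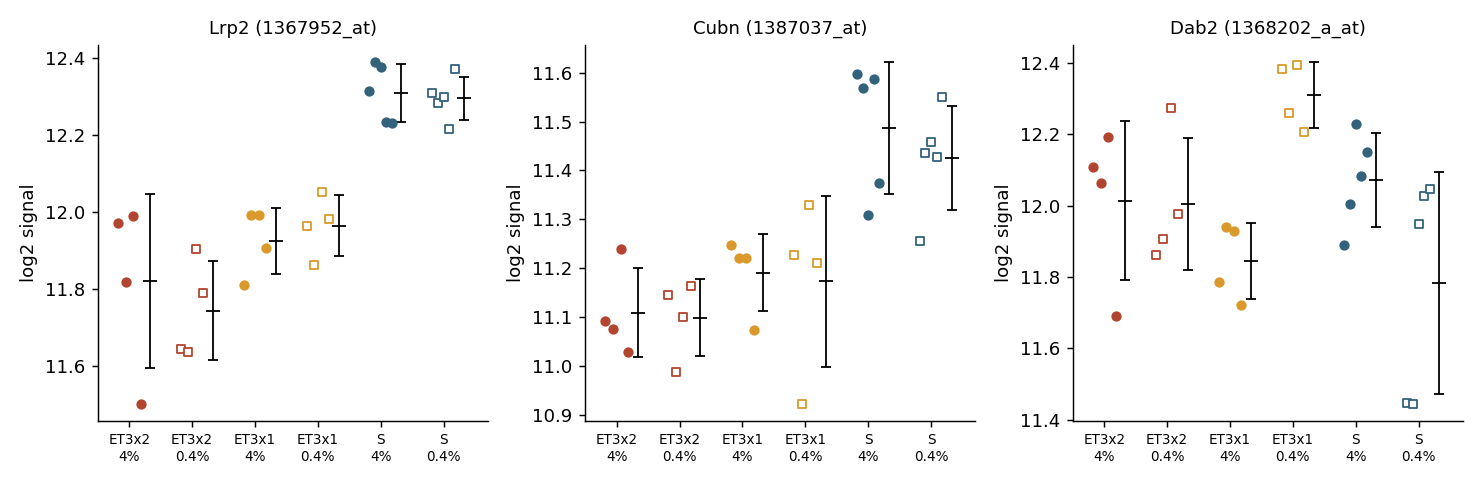
Log2 signal of Lrp2, Cubn and Dab2 (panels) in each of the 26 rats, by strain and NaCl content of the diet, with filled circles for 4% and open squares for 0.4% NaCl and the group mean ± SD in black (vertical axes do not start at 0). Lrp2 is below the S rats in all ET3x2 and ET3x1 rats, Cubn in all ET3x2 rats, and Dab2 is lower on high than on low salt in ET3x1.

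Among 10 tested partners of receptor uptake, 2 were higher and 4 lower in ET3x2 than in S rats, and 3 were higher and 3 lower in ET3x1. Their median difference was -0.12 in ET3x2 and 0.06 in ET3x1, and the share of all genes called was 30.9% in ET3x2 and 32.1% in ET3x1. The same shares and the medians of all genes, 0.03 in ET3x2 and 0.02 in ET3x1, stand against the counts and medians of each partner list below. Amn encodes amnionless, which holds cubilin at the membrane, and it was higher while Cubn was lower, by 0.25 ± 0.09 in ET3x2 (adjusted p = 0.0291) and 0.42 ± 0.09 in ET3x1 (adjusted p = 0.000751). Gipc1, for a scaffold that binds the megalin tail, was higher by 0.43 ± 0.10 in ET3x2 (adjusted p = 0.00352) and 0.46 ± 0.10 in ET3x1 (adjusted p = 0.00154). Lower were Rab5a, for a small GTPase of early endosomes, in ET3x2 (-0.41 ± 0.08, adjusted p = 0.00122), and Cltc, for the clathrin heavy chain, in ET3x2 (-0.28 ± 0.06, adjusted p = 0.00120). The endosomal adaptor gene Appl1 was lower in ET3x1 (-0.35 ± 0.07, adjusted p = 0.000668), where the folate receptor gene Folr1 was higher (0.42 ± 0.10, adjusted p = 0.00332). On low salt alone limma called 5 of the 10 partners in ET3x2 and 7 in ET3x1 against S, beside 22.4% and 29.9% of all genes. On high salt it called 0 and 1, beside 3.73% and 12.6%. Amn had an unadjusted p below 0.05 only on high salt in ET3x2 and only on low salt in ET3x1.

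With salt Amn was the only partner called over the 3 strains (-0.35 ± 0.07, adjusted p = 0.00118), 1 of 10 against 13.8% of all genes. In ET3x1 2 of the 10 were called, against 14.3% of all genes. There Amn fell by 0.66 on the log2 scale (adjusted p = 0.000965) and Rab5a rose (0.43 ± 0.13, adjusted p = 0.0209). The Rab5a response differed between ET3x1 and S rats (0.72 ± 0.17, adjusted p = 0.0157), 1 of 10 against 5.82% of all genes. For salt within ET3x2 and within S rats limma called 0 of the 10 partners, against 0.457% and 2.79% of all genes. Of the partners, 2 had an unadjusted p below 0.05 in each. Between ET3x2 and ET3x1, Rab5a (-0.28 ± 0.09), Rab11a (-0.20 ± 0.06) and Lrpap1 (-0.16 ± 0.05), which encodes a chaperone of megalin, were lower in ET3x2 (adjusted p = 0.0401, 0.0234 and 0.0402). They were 3 of 10, against 10.1% of all genes called.

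**Figure D3:**
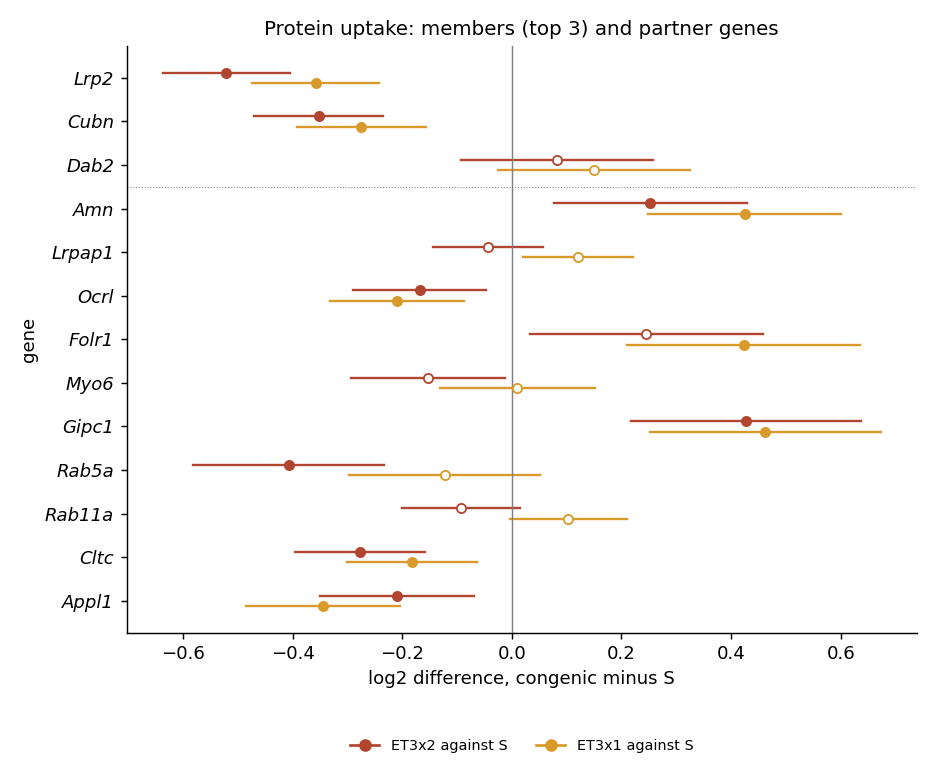
Log2 difference in ET3x2 rats (red) and ET3x1 rats (yellow) against S rats for the 3 endocytic members, above the dotted line, and 10 partner genes below it, with 95% confidence intervals and filled points for adjusted p below 0.05. Lrp2 and Cubn are lower and Amn and Gipc1 higher in both congenic strains.

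Slc4a4 encodes the sodium bicarbonate cotransporter of the basolateral membrane. By the brightest probe set of each gene it was the member with the clearest change on salt. Its brighter probe set, 1372479_at, gave 11.05, 10.96, 11.25 and 10.67 in ET3x2 rats on high salt and 10.57, 10.51, 10.66 and 10.52 in those on low salt. In ET3x1 rats it gave 11.08, 11.19, 11.27 and 11.20 on high salt and 10.86, 10.52, 10.93 and 10.81 on low salt. S rats had 11.20, 11.43, 11.28, 11.28 and 11.16 on high salt and 11.07, 10.94, 10.87, 10.77 and 11.18 on low salt. All high-salt rats were above all low-salt rats within ET3x2 and within ET3x1, and the S diets overlapped only through the lowest high-salt and the highest low-salt rat. Over the 3 strains Slc4a4 rose by 0.38 ± 0.06 (adjusted p = 8.35e-05), the single member called among 9, against 13.8% of all genes.

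Within a strain, the change of Slc4a4 by this probe set was 0.42 ± 0.10 in ET3x2 (adjusted p = 0.0700), 0.41 ± 0.10 in ET3x1 (adjusted p = 0.00834) and 0.30 ± 0.09 in S rats (adjusted p = 0.0697). The share of all genes called was 0.457% in ET3x2, 14.3% in ET3x1 and 2.79% in S rats, where limma called 0, 2 and 0 of the 9 members. Before adjustment 1 member had p below 0.05 in ET3x2 (Slc4a4) and 4 in S rats (Slc4a4, Slc34a1, Dab2 and Slc22a6). Its salt responses differed by 0.11 ± 0.14 between ET3x2 and S (95% interval -0.17 to 0.40) and by 0.10 ± 0.14 between ET3x1 and S rats (95% interval -0.18 to 0.39). With the Gapdh ratio as a covariate the change over the 3 strains was 0.27 (adjusted p = 0.243), and in ET3x1 it was 0.23 (adjusted p = 0.569). Without ET3x1 rat 2 on low salt the ET3x1 change was 0.32 (adjusted p = 0.0551), and with both probe sets of Slc4a4 averaged it was 0.25 (adjusted p = 0.0865). Of 14 alternatives that left out no single rat, 10 kept the ET3x1 call.

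By strain, the same probe set of Slc4a4 was lower in ET3x2 than in S rats (-0.34 ± 0.07, adjusted p = 0.000951), on low salt by -0.40 ± 0.10 (adjusted p = 0.00647) and on high salt by -0.29 ± 0.10 (adjusted p = 0.0869). In ET3x1 the difference from S was -0.13 ± 0.07 (adjusted p = 0.139). The second probe set, 1369756_a_at, moved the other way by strain. It was higher in ET3x2 (0.25 ± 0.09, adjusted p = 0.0443) and in ET3x1 (0.33 ± 0.09, adjusted p = 0.00760) than in S rats, and its lowest, median and highest signals were 9.50, 9.65 and 10.09 in ET3x2, 9.51, 9.89 and 10.05 in ET3x1 and 8.95, 9.52 and 9.86 in S rats. On salt both probe sets were above 0 (0.20 ± 0.08 for the second, adjusted p = 0.0775). Within strains the second changed by 0.12 ± 0.14 in ET3x2 (adjusted p = 0.803) and 0.09 ± 0.14 in ET3x1 (adjusted p = 0.710). In S rats it changed by 0.39 ± 0.12 (adjusted p = 0.0742), so the ET3x1 call rests on the brighter probe set. The low-salt difference of Slc4a4 between ET3x2 and S rats was -0.33 with the Gapdh ratio as a covariate (adjusted p = 0.0566). With both probe sets averaged, Slc4a4 differed between ET3x2 and S rats by -0.05 (adjusted p = 0.603), and by -0.0089 on low salt (adjusted p = 0.956), so no single direction by strain can be given for the gene.

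**Figure D4:**
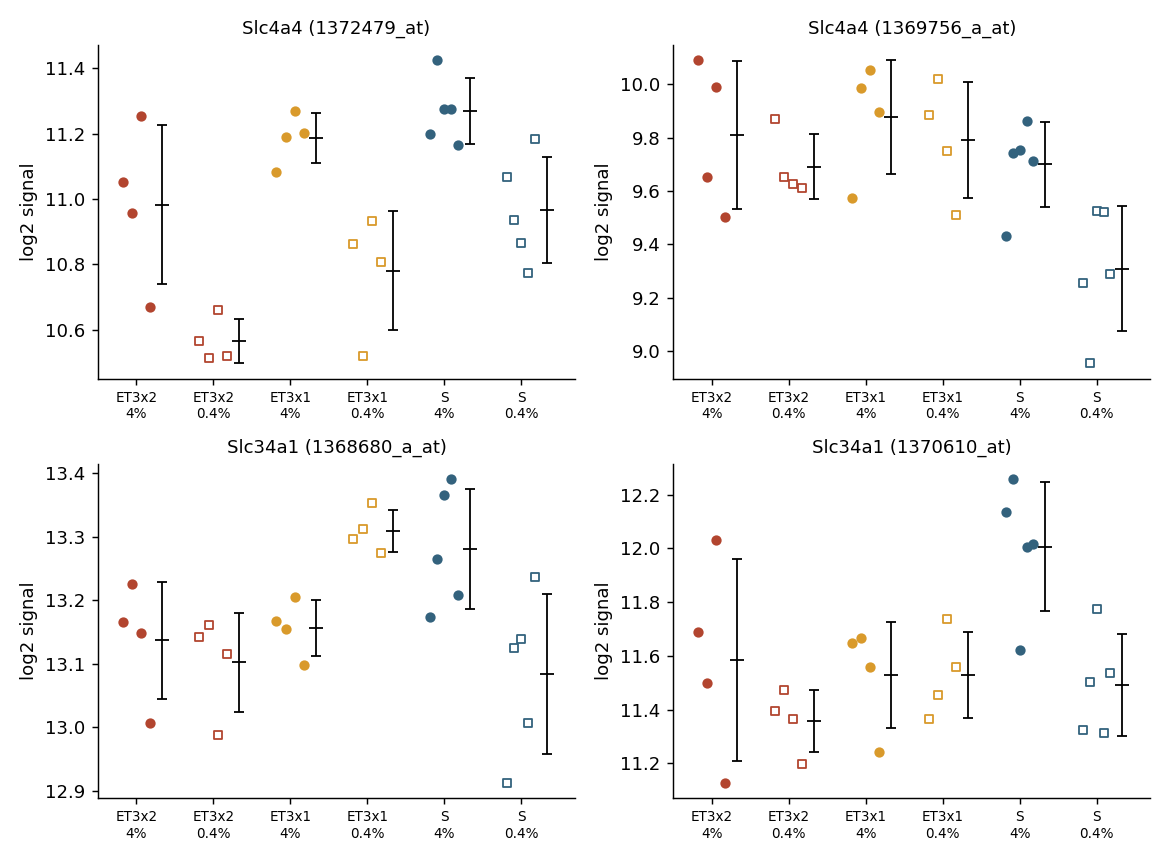
Log2 signal of both probe sets of Slc4a4 (upper panels) and of Slc34a1 (lower panels) in the 26 rats, by strain and NaCl content of the diet, with filled circles for 4% and open squares for 0.4% NaCl and group mean ± SD in black (vertical axes do not start at 0). The Slc4a4 probe sets order the strains differently, with ET3x2 lowest on the left and S lowest on the right.

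Slc9a3 encodes NHE3, the sodium and hydrogen exchanger of the brush border. Its signal had a lowest, median and highest value of 9.15, 9.32 and 9.55 in ET3x2, 8.80, 9.30 and 9.39 in ET3x1 and 9.22, 9.40 and 9.54 in S rats. The strains overlapped widely. The difference from S was -0.06 ± 0.06 in ET3x2 (adjusted p = 0.509) and -0.15 ± 0.06 in ET3x1 (95% interval -0.28 to -0.03, adjusted p = 0.0540). On low salt Slc9a3 was lower in ET3x1 (-0.30 ± 0.09, adjusted p = 0.0118), but without ET3x1 rat 2, the lowest of all 26 rats at 8.80, the difference was -0.19 (adjusted p = 0.0905). The change on salt was 0.09 ± 0.05 over the 3 strains (adjusted p = 0.264).

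Slc34a1 encodes NaPi-IIa, the main sodium phosphate cotransporter of this segment, and its probe set 1368680_a_at ranked 31 of 15866 on its chip. It gave 13.17, 13.23, 13.15 and 13.01 in ET3x2 rats on high salt and 13.14, 13.16, 12.99 and 13.12 in those on low salt. In ET3x1 rats it gave 13.17, 13.16, 13.21 and 13.10 on high salt and 13.30, 13.31, 13.35 and 13.27 on low salt. S rats had 13.17, 13.27, 13.37, 13.39 and 13.21 on high salt and 12.91, 13.12, 13.14, 13.01 and 13.24 on low salt. The ET3x1 rats on high salt were all below those on low salt, while in ET3x2 and S rats the diets overlapped. The change on salt was 0.03 ± 0.07 in ET3x2 (adjusted p = 0.901), -0.15 ± 0.07 in ET3x1 (adjusted p = 0.118) and 0.20 ± 0.06 in S rats (adjusted p = 0.0668).

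The responses of ET3x1 and S rats differed for the bright probe set of Slc34a1 (-0.35 ± 0.09, adjusted p = 0.0236). The second probe set gave -0.52 ± 0.20 (adjusted p = 0.113, not called), and its change on salt in ET3x1 was 0.0005 ± 0.15 (adjusted p = 0.997). By their brightest probe sets, Slc34a1 and Dab2 were the 2 of 9 members called in that comparison, against 5.82% of all genes, 431 of 509 of them lower. The Slc34a1 call was lost without ET3x1 rat 4 on high salt, or ET3x1 rat 2 or 3 on low salt (adjusted p = 0.0530, 0.0517 and 0.0610), with the value between -0.39 and -0.31 when any 1 rat was left out. With the Gapdh ratio as a covariate it was -0.41 (adjusted p = 0.161). In the corresponding tests 0 members and 0.00% of genes were called for ET3x2 minus S, where 3 of 15473 probe sets passed, and 0 members and 0.172% of genes for ET3x2 minus ET3x1. In each of these 1 member had an unadjusted p below 0.05, Slc22a6 for ET3x2 minus S and Dab2 for ET3x2 minus ET3x1.

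Averaged over diets the bright Slc34a1 probe set differed by -0.06 ± 0.04 in ET3x2 and by 0.05 ± 0.04 in ET3x1 from S rats, neither called. On low salt it was higher in ET3x1 than in S rats (0.22 ± 0.06, adjusted p = 0.0108), where the second probe set gave 0.04 ± 0.14 (adjusted p = 0.865) and the average of both 0.13 (adjusted p = 0.270). The second probe set, 1370610_at, was lower in ET3x2 than in S rats (-0.28 ± 0.10, adjusted p = 0.0344), and so was the average of both (-0.17, adjusted p = 0.0402). The second probe set was higher on salt over the 3 strains (0.25 ± 0.08, adjusted p = 0.0388) and in S rats (0.52 ± 0.13, adjusted p = 0.0302). On high salt it was lower in ET3x1 than in S rats (-0.48 ± 0.14, adjusted p = 0.0214), where the bright one gave -0.12 ± 0.06 (adjusted p = 0.192). The probe sets therefore gave different calls. In S rats the second one read 12.14, 12.26, 11.62, 12.00 and 12.01 on high salt and 11.32, 11.50, 11.78, 11.31 and 11.54 on low salt. High salt was higher in S apart from 1 overlapping rat, at 11.62.

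Of 14 tested partners of ion uptake, 1 was higher and 2 were lower in ET3x2 than in S rats, and 3 were higher and 1 was lower in ET3x1, with medians of 0.03 in ET3x2 and 0.06 in ET3x1. Car2, for cytosolic carbonic anhydrase, which supplies protons and bicarbonate to these exchangers, was lower in ET3x2 (-0.31 ± 0.06, adjusted p = 0.000655) and higher on salt over the 3 strains (0.36 ± 0.05, adjusted p = 2.80e-05). The sodium pump subunit gene Atp1b1 was lower in ET3x2 (-0.19 ± 0.04, adjusted p = 0.00320) and in ET3x1 (-0.13 ± 0.04, adjusted p = 0.0244). Nherf2, for a scaffold that binds NHE3, was higher in ET3x2 (0.23 ± 0.07, adjusted p = 0.0183) and lower on salt (-0.21 ± 0.06, adjusted p = 0.0171). Pth1r, the receptor for parathyroid hormone, which lowers phosphate uptake, was higher in ET3x1 (0.47 ± 0.11, adjusted p = 0.00258), as were the phosphate cotransporter gene Slc34a3 (0.31 ± 0.12, adjusted p = 0.0499) and the water channel gene Aqp1 (0.21 ± 0.08, adjusted p = 0.0315). The salt response of ET3x1 minus that of S rats was -0.83 ± 0.22 for Pth1r (adjusted p = 0.0276) and 0.41 ± 0.12 for Car2 (adjusted p = 0.0443). Against S on low salt, limma called 3 of the 14 in ET3x2 and 5 in ET3x1, beside 22.4% and 29.9% of all genes. On high salt it called 0 in each, beside 3.73% and 12.6%. In ET3x1 Pth1r, Slc34a3 and Aqp1 had an unadjusted p below 0.05 on low salt and not on high salt.

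**Figure D5:**
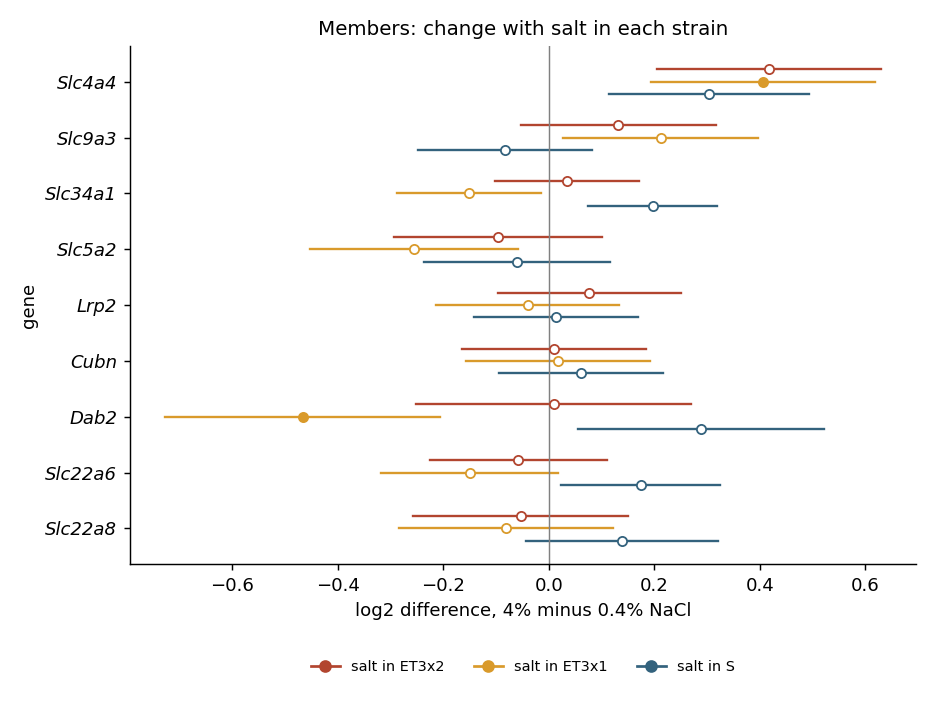
Log2 difference of the 9 tested members between 4% and 0.4% NaCl in ET3x2 (red), ET3x1 (yellow) and S rats (blue), with 95% confidence intervals of the limma fit and filled points for adjusted p below 0.05. Slc4a4 lies right of 0 in all 3 strains (0.42, 0.41 and 0.30), and Dab2 lies left of 0 in ET3x1 (-0.47) and right of it in S rats (0.29, not called).

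The sodium glucose cotransporters SGLT2 (Slc5a2), of high capacity in the early tubule, and SGLT1 (Slc5a1), of high affinity in the late tubule, were read very differently. Slc5a2 had a lowest, median and highest signal of 11.21, 11.36 and 11.59 in ET3x2, 11.31, 11.55 and 11.80 in ET3x1 and 11.06, 11.30 and 11.52 in S rats. ET3x1 rats reached higher than S rats, with overlap. Slc5a2 was higher in ET3x1 than in S rats (0.25 ± 0.06, adjusted p = 0.00506), and the difference in ET3x2 was 0.10 ± 0.06 (adjusted p = 0.252). ET3x2 and ET3x1 differed by -0.15 ± 0.07 (adjusted p = 0.150), so the congenic strains were not shown to differ. By diet, the ET3x1 difference from S was 0.35 ± 0.09 on low salt (adjusted p = 0.00735) and 0.15 ± 0.09 on high salt (adjusted p = 0.272). After quantile normalization the low-salt difference of Slc5a2 was 0.22 (adjusted p = 0.0537). On salt Slc5a2 changed by -0.14 ± 0.05 over the 3 strains (adjusted p = 0.0851).

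Slc5a1 stood at a mean of 7.05, in percentile 41.1 of its chip, below the filter. Its lowest, median and highest signals were 6.80, 7.06 and 7.45 in ET3x2, 6.83, 7.06 and 7.64 in ET3x1 and 6.84, 6.97 and 7.07 in S rats. In a fit without a filter it differed by 0.12 ± 0.07 in ET3x2 (adjusted p = 0.231) and 0.16 ± 0.07 in ET3x1 (adjusted p = 0.0975) from S rats. In that fit its change on salt in ET3x1 was 0.33 ± 0.11 (adjusted p = 0.0499), and on high salt ET3x1 differed from S rats by 0.31 ± 0.10 (adjusted p = 0.0469). ET3x1 rats on high salt read 6.99, 7.21, 7.32 and 7.64, against 7.04, 6.83, 6.88 and 7.07 for those on low salt, so these groups overlapped.

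Of 5 tested partners of sugar transport, 1 was higher in ET3x2 and 3 in ET3x1 than in S rats, and none was lower, with medians of 0.11 in ET3x2 and 0.16 in ET3x1. Pdzk1ip1, whose product MAP17 is a partner of SGLT2, was higher in ET3x2 (0.20 ± 0.06, adjusted p = 0.0202) and in ET3x1 (0.31 ± 0.06, adjusted p = 0.000885). In ET3x1 Slc5a11, for a sodium-coupled inositol transporter, was higher by 0.31 ± 0.10 (adjusted p = 0.0179) and the fructose transporter gene Slc2a5 by 0.16 ± 0.05 (adjusted p = 0.0165). Slc2a2, for GLUT2 of the basolateral membrane, rose on salt over the 3 strains (0.30 ± 0.07, adjusted p = 0.00636). Slc2a1, for GLUT1, was higher in ET3x2 than in ET3x1 rats (0.26 ± 0.08, adjusted p = 0.0291).

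Slc22a6 and Slc22a8, the organic anion transporters OAT1 and OAT3, lie on chromosome 1, and their brighter probe sets were called in none of the 16 comparisons of the limma fit described above. Slc22a6 had a lowest, median and highest signal of 11.34, 11.47 and 11.70 in ET3x2, 11.20, 11.43 and 11.52 in ET3x1 and 11.10, 11.49 and 11.63 in S rats. Slc22a8 had 11.69, 11.87 and 12.10 in ET3x2, 11.86, 12.02 and 12.16 in ET3x1 and 11.62, 11.91 and 12.15 in S rats. The strains overlapped over most of their range for both. Slc22a6 differed from S by 0.01 ± 0.05 in ET3x2 (95% interval -0.11 to 0.12) and by -0.06 ± 0.05 in ET3x1 (95% interval -0.18 to 0.05). For Slc22a8 these differences were -0.03 ± 0.07 in ET3x2 (95% interval -0.17 to 0.10) and 0.11 ± 0.07 in ET3x1 (95% interval -0.02 to 0.25). The smallest adjusted p of Slc22a6 was 0.0518, for ET3x1 against S on high salt (-0.22 ± 0.08). After quantile normalization calls of Slc22a6 included -0.13 for ET3x1 against S (adjusted p = 0.0271), -0.23 for ET3x1 against S on high salt (adjusted p = 0.0197) and 0.17 for ET3x2 against ET3x1 (adjusted p = 0.0304). With array weights Slc22a8 was called for ET3x1 against S on low salt (0.27, adjusted p = 0.0115). The second Slc22a8 probe set, 1385005_at on RAE230B, was higher in ET3x2 than in ET3x1 (0.26 ± 0.08, adjusted p = 0.0444), where the brighter one gave -0.15 ± 0.07 (adjusted p = 0.169).

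Among 12 tested transporters of organic ions and acids, 3 were higher and 2 lower in ET3x2 than in S rats, and 3 were higher and none lower in ET3x1, with medians of 0.05 in ET3x2 and 0.06 in ET3x1. Slc22a2, the cation transporter OCT2, was higher in both, by 0.34 ± 0.07 in ET3x2 (adjusted p = 0.00161) and 0.50 ± 0.07 in ET3x1 (adjusted p = 3.98e-05). Slc13a2, for a citrate and succinate cotransporter, was higher by 0.34 ± 0.10 in ET3x2 (adjusted p = 0.0115) and 0.27 ± 0.10 in ET3x1 (adjusted p = 0.0340), and on salt over the 3 strains by 0.31 ± 0.08 (adjusted p = 0.0101). Slc47a1, for the cation exporter MATE1, was lower in ET3x2 (-0.35 ± 0.10, adjusted p = 0.0128), and so was the sulfate cotransporter gene Slc13a1 (-0.27 ± 0.10, adjusted p = 0.0376). In ET3x1 the urate transporter gene Slc22a12 was higher (0.41 ± 0.12, adjusted p = 0.00989).

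Of 10 tested genes of amino acid and peptide uptake, 0 were higher and 2 lower in ET3x2, and 2 were higher and 2 lower in ET3x1, with medians of -0.02 in ET3x2 and -0.02 in ET3x1. Cltrn encodes collectrin, which brings neutral amino acid transporters to the brush border. It was lower in ET3x2 than in S rats (-0.50 ± 0.07, adjusted p = 5.80e-05) and than in ET3x1 rats (-0.46 ± 0.08, adjusted p = 0.000899), and Slc7a8 was lower in ET3x2 (-0.24 ± 0.07, adjusted p = 0.0101). Slc3a2, a heavy chain of amino acid exchangers, was higher in ET3x1 (0.35 ± 0.10, adjusted p = 0.0101). Of 3 tested regulators (Hnf4a, Esrra and Nr1h4), the nuclear receptor gene Esrra was higher in ET3x2 (0.18 ± 0.05, adjusted p = 0.0128), and none was called in ET3x1.

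By diet, more members were called between ET3x1 and S rats on low than on high salt. On low salt 3 were higher (Slc34a1, Slc5a2 and Dab2) and 3 lower (Slc9a3, Lrp2 and Cubn), against 29.9% of all genes called. On high salt 0 were higher and 2 were lower (Lrp2 and Cubn), against 12.6% of all genes. Between ET3x2 and ET3x1 rats limma called 0 members on low salt, against 3.39% of all genes, and 0 on high salt, against 6.34%, while 5 members on low and 0 on high salt had an unadjusted p below 0.05. A count on 1 diet and not on the other does not show that the diets differ, which only the tests of the salt responses address.

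From rat to rat, 2 of 7 pairs of functional partners were correlated within their groups, and so were pairs of members that are not partners. For the 7 pairs of partners, signals minus the group mean were correlated over the 26 rats, with permutation of rats within groups and Benjamini-Hochberg adjustment over the 7. Slc22a6 and Slc22a8 gave Pearson's r = 0.623 (permutation p = 0.0115, adjusted p = 0.0416) and Spearman's rho = 0.618 (permutation p = 0.00468, adjusted p = 0.0328). Without the 2 rats farthest from the median of Slc22a6 r was 0.574 (adjusted p = 0.0440) and rho 0.532 (adjusted p = 0.0710), but after quantile normalization it was 0.181 (adjusted p = 0.504). Lrp2 and Dab2 gave r = 0.526 (permutation p = 0.0119, adjusted p = 0.0416) and rho = 0.527 (permutation p = 0.00955, adjusted p = 0.0334), and without the 2 rats farthest from the median of Lrp2 r was 0.358 (permutation p = 0.0772, adjusted p = 0.214) and rho 0.441 (permutation p = 0.0375, adjusted p = 0.131), so the call was lost. For Lrp2 and Dab2 r was 0.579 after quantile normalization (adjusted p = 0.0381) and 0.501 with the Gapdh ratio regressed out (adjusted p = 0.0747). The receptors Lrp2 and Cubn gave r = 0.357 (permutation p = 0.0641, adjusted p = 0.150) and rho = 0.361 (permutation p = 0.0924, adjusted p = 0.164). The other 4 pairs had r between -0.243 (Slc5a1 and Slc5a2) and 0.446 (Slc4a4 and Slc9a3), none passing after adjustment. Both genes of each pair, by their brightest probe sets, were read on the same RAE230A array of a rat and share its scaling. Over all 36 pairs of tested members 32 had r above 0, with a median r of 0.324. After adjustment over the 36, 5 pairs passed by Pearson's r. Slc22a6 with Slc22a8 and Lrp2 with Dab2 were not among them (permutation, adjusted p = 0.0605 for each). By Spearman's rho both passed (permutation, adjusted p = 0.0406 and 0.0489). The count of partner pairs therefore does not set partners apart from other members.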

How the data were processed

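Left kidney RNA (15 µg) of each of 26 rats was hybridised to an RAE230A and an RAE230B chip, per the labels. Values were deposited as log2 signals, from 4.11 to 14.69 on RAE230A and from 3.40 to 13.44 on RAE230B. The authors had normalized them, as the near-equal array medians show. The method is not given in the sources used here. Precision is limited by the number of arrays. A rat is 1 replicate, and replicate numbers name rats and pair none.

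From each chip 57 control probe sets were set aside to measure quality, and probe sets averaging under the chip median were dropped. Another 100 that both chips carry were kept for RAE230A alone, and 15473 remained. Each chip was fitted with limma 3.58.1 in R 4.3.3 (6 group coefficients, intensity trend, 20 residual degrees of freedom), with 16 two-sided comparisons adjusted over both chips. Simulated data with known changes were used to test it. Counts of genes and members use each gene's brightest probe set. Correlations used 100000 permutations in Python. Symbols, chromosomes and spans came from a GRCr8 table, and start regions from RefSeq of that build.

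All probe sets of the members are named, and from each list, in each comparison, at most 4 called genes with the largest change. The members and lists were chosen with earlier results of these data known. Alternatives were other normalizations (quantile, centred medians), filters (none, brightest 25%), fits (no trend, array weights, chips or strains alone, probe sets averaged), covariates (Gapdh, beta-actin, spike-ins) and leaving out each rat. Leaving out 2 pairs of rats was chosen after seeing the data.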

Additional observations from a re-analysis of the deposited data

Results flagged for a closer look

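In 2 of 78 groups of rats, taken probe set by probe set, 1 rat stood far from the others by Dixon's ratio. Chance flags about 1 in 20 groups. Rat 1 of ET3x2 on low salt had the highest signal of the second Slc4a4 probe set, 9.87, with the next rat at 9.65 (4 rats, ratio 0.842). Rat 4 of ET3x1 on high salt had the lowest Cubn signal of its group, 11.07, with the next at 11.22 (4 rats, ratio 0.838).

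The salt responses of ET3x1 and S rats differed for 2 members by the test of the difference itself. For Dab2 it was -0.75 (limma, adjusted p = 0.0129), with all 4 ET3x1 rats on high salt below all 4 on low salt. For Slc34a1 it was -0.35 by the brighter probe set (limma, adjusted p = 0.0236) and -0.52 by the second (limma, adjusted p = 0.113, not called). The mean Gapdh 3' to 5' ratio (log2) differed between the diets in ET3x1 (0.594 on high and 0.877 on low salt) more than in S rats (0.812 on high and 0.827 on low salt). With that ratio as a covariate the differences by the brightest probe sets were larger but not called, with an adjusted p of 0.0856 for Dab2 and 0.161 for Slc34a1 (limma).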

How the results depend on the processing

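Of 24 called differences of single members, 12 kept their call under every alternative that left out no single rat, and 18 when any 1 rat was left out. Of 335 values that left out no single rat, 316 kept call and direction, 19 lost the call and 0 reversed. Lrp2 kept its calls against S under every alternative run. The cause of the shifts below was not tested. With quantile normalization the number of members called was 6 for ET3x1 against S, 1 for ET3x2 against ET3x1 and 2 for salt over the 3 strains, and r of Slc22a6 and Slc22a8 was 0.181. With array weights it was 5, 2 and 2 in these comparisons, 3, 5 and 1 for salt in S, ET3x1 and ET3x2, 4 for ET3x2 against ET3x1 on low salt, and 1 for the salt response of ET3x2 minus ET3x1. With the Gapdh covariate it was 0 for salt over the 3 strains, for salt in ET3x1 and for the response of ET3x1 minus S, and 1 for ET3x2 against S on low salt, and r of Lrp2 and Dab2 was 0.501. Without the covariate, that r was 0.358 when 2 rats were left out. Centred medians gave 2 for ET3x2 against ET3x1. Leaving out the 2 rats farthest from their group means gave 1 there and 1 for salt in ET3x2, and leaving out S rats 1 and 2 on high salt gave 1 for ET3x2 and 1 for ET3x1 against S on high salt. Adjustment within each chip gave 1 for salt in S and 1 in ET3x2, the brightest 25% gave 1 in S, and averaged probe sets gave 2 in S and 1 in ET3x1. For salt in ET3x1 the beta-actin covariate gave 1, the spike-in covariate 1 and a fit of only the strains compared 4. The spike-in covariate gave 1 for ET3x1 against S on high salt and 1 for the response of ET3x1 minus S, as did no filter (1).

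Without any 1 rat, the number of members called was 3 to 3 for ET3x2 against S (3 to 3 on low, 1 to 3 on high salt), 3 to 4 for ET3x1 against S (4 to 6 and 1 to 3), and 0 to 2 for ET3x2 against ET3x1 (0 to 0 on each diet). For salt it was 1 to 2 over the 3 strains, 0 to 1 in ET3x2, 1 to 3 in ET3x1 and 0 to 2 in S, and for the responses 1 to 3 for ET3x1 minus S and 0 to 0 for the others. No paired analysis was possible because the rats' numbers were given in accession order and pair no rats.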

Other observations

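Over all 36 pairs of the 9 tested members, 32 had a positive within-group correlation over the 26 rats, by the brightest probe set of each gene. For Slc4a4 this was 1372479_at, and its second probe set was not correlated with other members. As a set, the 36 pairs were not rerun after quantile normalization or with the Gapdh ratio regressed out. The highest was Slc4a4 with Lrp2, a pair that is not among the 7 reported and was noticed in the data (Pearson's r = 0.805, permutation p = 2.0e-05, adjusted over the 36 pairs 0.000720; Spearman's rho = 0.791, permutation p = 1.0e-05, the smallest that 100000 permutations can give, adjusted 0.000360). Without the 2 rats farthest from the median of Slc4a4 r was 0.688. Slc34a1 with Slc22a8 followed (r = 0.711, permutation p = 0.00115, adjusted 0.0207; rho = 0.661, permutation p = 0.00261, adjusted 0.0313), with r = 0.581 without the 2 farthest rats.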
